A study of Mus musculus with 4 samples.

Results

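The genes described here encode the kainate receptor subunits and the delta receptor subunit GluD1 in nuclei of the adult mouse cortex. They are Grik1, Grik2, Grik3, Grik4, Grik5 and Grid1, chosen by gene symbol, and they make up 6 of the 32285 genes in the deposited count matrices. No rule on their values was used to choose them, although earlier results of these data were known when they were chosen. C57BL/6J mice of wild-type genotype received saline or risperidone, an antipsychotic that blocks dopamine and serotonin receptors, by daily injection from postnatal day (PND) 22 for 21 days. Risperidone was given at 4 mg/kg, and the cortices were taken at PND 90, after a period without drug. A single pool per condition held the right hemicortex of 10 mice, 5 of each sex. Nuclei sorted from it by a DNA stain were loaded on 2 Chromium lanes for single-nucleus RNA sequencing. The pool is the replicate, so n = 1 per condition. The 2 lanes of a pool are technical runs of it, and no test between conditions exists for these data. All intervals below cover counting error only, at 95% confidence, and say nothing about the spread between mice.

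Kainate receptors are glutamate-gated channels of 4 subunits that act on both sides of the synapse, where they pass current, set excitability and adjust the release of GABA and glutamate. The proteins of Grik1, Grik2 and Grik3 (GluK1 to GluK3) form working channels on their own. Those of Grik4 and Grik5 (GluK4 and GluK5) bind kainate with higher affinity and form working channels when joined to a subunit of the first kind. The product of Grid1, GluD1, resembles these subunits but is best known as a synaptic organiser, which is held by secreted cerebellin or C1q-like proteins to neurexins on the presynaptic side.

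All of these proteins share a re-entrant loop that lines the pore. A coding stretch that holds the last part of that loop and runs towards the third membrane segment is shown for each gene. It holds a pair of glutamine codons, printed in capitals. The first of the 2 codons is the Q/R site, at which the RNAs of Grik1 and Grik2 are known to be recoded by editing. The files count whole molecules per gene, so editing was not measured. Each stretch has 78 bases, is split over 2 exons, and was read from the GENCODE vM21 transcripts of GRCm38.
Grik1: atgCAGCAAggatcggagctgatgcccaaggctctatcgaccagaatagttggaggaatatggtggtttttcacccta
Grik2: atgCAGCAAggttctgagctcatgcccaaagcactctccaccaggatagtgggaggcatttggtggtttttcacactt
Grik3: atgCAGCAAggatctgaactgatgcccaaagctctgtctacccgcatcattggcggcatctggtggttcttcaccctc
Grik4: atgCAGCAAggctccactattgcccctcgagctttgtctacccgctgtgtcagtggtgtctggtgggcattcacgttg
Grik5: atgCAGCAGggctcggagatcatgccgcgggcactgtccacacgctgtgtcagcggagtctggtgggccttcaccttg
Grid1: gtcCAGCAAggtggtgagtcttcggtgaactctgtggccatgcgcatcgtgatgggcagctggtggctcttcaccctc

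Over 117 bases that begin with these stretches, Grik1 matched Grik3 at 85.5% and Grik2 at 81.2%. The high-affinity pair, Grik4 and Grik5, matched each other at 82.9%. Between that pair and Grik1, Grik2 or Grik3, the match ran from 63.2% (Grik2 and Grik4) to 77.8% (Grik3 and Grik5). The upper value equals that of Grik2 and Grik3, so base identity did not fully part the groups. Grid1 matched the others at 58.1% to 69.2%, a range that overlapped the one between the groups. In encoded residues it shared 22 to 24 of 39 with the others, against 30 or more among the Grik genes. The printed stretches lie at chr16:87936048-87940547 on the minus strand for Grik1, chr10:49240729-49244334 (minus) for Grik2 and chr4:125691204-125694029 (plus) for Grik3. Those of Grik4, Grik5 and Grid1 lie at chr9:42543908-42547628 (minus), chr7:25015958-25022502 (minus) and chr14:35450387-35452328 (plus).

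The genes differ widely in length, which matters because the authors counted intronic reads. Grid1 (ENSMUSG00000041078, chr14:34820108-35583379) spans 763 kb and Grik2 (ENSMUSG00000056073, chr10:49094833-49788766) spans 694 kb. Grik4 (ENSMUSG00000032017, chr9:42518135-42944493), Grik1 (ENSMUSG00000022935, chr16:87895900-88290265) and Grik3 (ENSMUSG00000001985, chr4:125490700-125714173) span 426, 394 and 223 kb. Grik5 (ENSMUSG00000003378, chr7:25009849-25072346) is much shorter, at 62.5 kb. The exons of the 6 genes add up to between 5.17 kb (Grik5) and 13.2 kb (Grik2). Of the genes in the count matrices, none lies on the opposite strand within any of them, and 2 short sense-intronic genes lie within Grik2. Annotated genes without a row in the matrices were not looked at.

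The lanes listed 23450 to 29986 nuclei and held 119736937 to 203675013 unique molecular identifiers (UMIs, 1 per captured molecule). The median nucleus held 3297 and 4049 UMIs in the lanes of the saline pool but 5648 and 7765.5 in those of the risperidone pool. The lowest nucleus held 1364 and 1630 UMIs in the saline lanes against 500 in both risperidone lanes, so the lists of nuclei do not start at the same depth. Malat1, a nuclear RNA, took 2.11% and 2.12% of saline UMIs and 3.41% and 3.26% of risperidone UMIs. Nuclei were named from marker genes, and 55940 of them were glutamatergic, with 116 CPM of the transporter gene Slc17a7 and 5.97 of Gad2. Defining markers were present in each interneuron class, with Pvalb at 38.9, Sst at 61.9, Vip at 245 and Lamp5 at 67.9 CPM in the class of that name. In the dissected tissue labelled cortex, 423 to 922 nuclei a lane were striatal spiny projection neurons and 83 to 185 were dentate granule cells.

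Members of the family were abundant. The 6 genes took 1759187 UMIs in all, or 2954 and 2950 counts per 1000000 UMIs (CPM) in saline against 2602 and 2606 in risperidone. Grik2 contributed 737721 of these UMIs and Grid1 contributed 448007. The level in a cell class is given below in CPM of that class, scaled by TMM factors, a normalization that centres the bulk of genes. Sets of 4 values give the saline lanes 1 and 2 and then the risperidone lanes 1 and 2. Levels were ordered over 17 classes, namely 8 cortical layer types of glutamatergic neuron, 4 interneuron classes and 5 others. The layer types are intratelencephalic (IT) neurons of layers 2/3, 4/5 and deeper, extratelencephalic (ET) and near-projecting (NP) neurons, corticothalamic (CT) neurons of layer 6, layer 6b and a claustrum-like type. The plot of levels by class shows every lane.

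**Figure D1:**
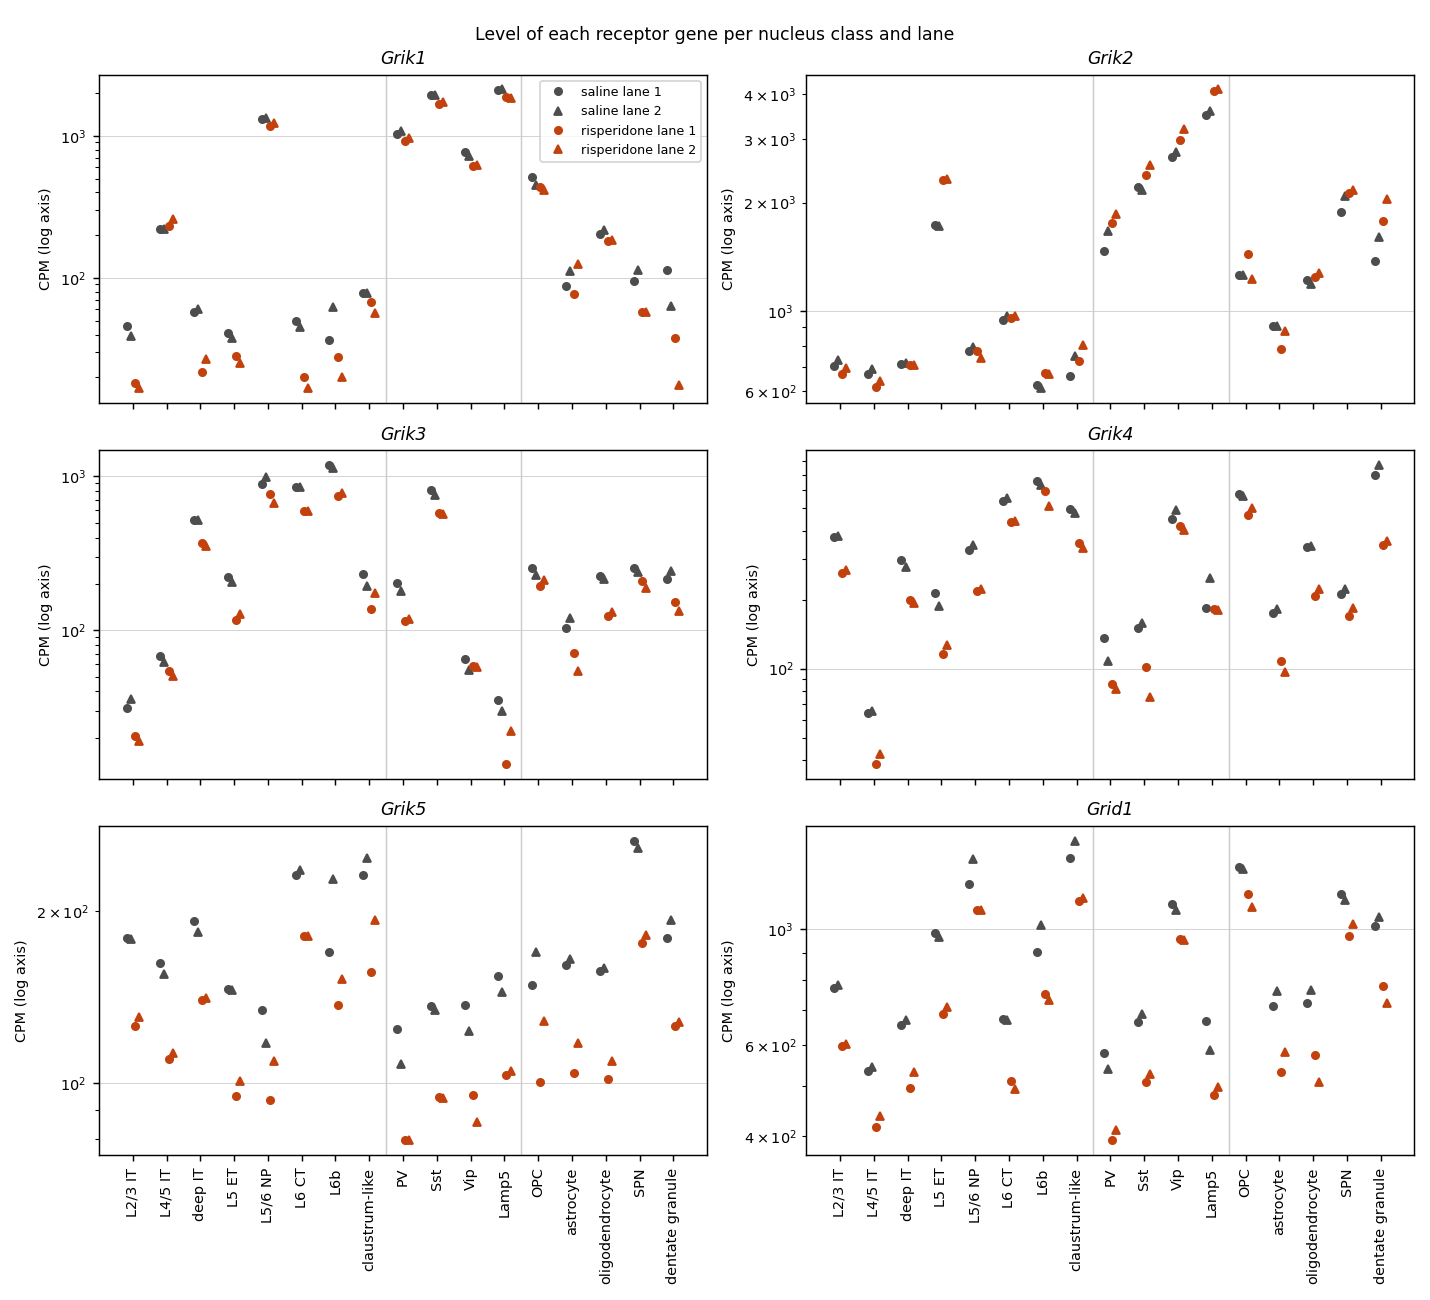
Level of each of the 6 genes in 17 cell classes, in CPM on a log axis, with a circle for lane 1 and a triangle for lane 2 of the saline pool (grey) and the risperidone pool (orange). Grik1 ranged from 29.95 in L2/3 IT to 1977 in Lamp5 interneurons, while Grik5 stayed between 97.99 and 219.9.

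Grik1 was a gene of interneurons and of single layer types. In Lamp5 interneurons it stood at 2098, 2116, 1862 and 1831 CPM, and in Sst interneurons, which target dendrites, at 1923, 1933, 1674 and 1722. These 2 classes led the order and their lane ranges overlapped, although Lamp5 was above Sst within each pool. L5/6 NP neurons followed with 1312, 1333, 1165 and 1232, above the PV interneurons, which target cell bodies, with 1032, 1079, 920.1 and 968. Vip interneurons held 769, 715, 616 and 622, and oligodendrocyte precursors held 514, 454, 436 and 416. Among the IT types, L4/5 IT neurons stood alone with 220.1, 219.8, 233 and 259.5. In L2/3 IT neurons the values were 45.7, 39.01, 18.2 and 16.9, so that the mean level differed 66.0-fold between the top and the bottom of the order. From rank 2 to rank 9 no neighbouring classes overlapped, and below that rank all of them did.

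After each nucleus was thinned to 2000 UMIs, 81.8% of Lamp5 nuclei held a UMI of Grik1 (Clopper-Pearson interval 79.8 to 83.7), as did 81.8% of Sst nuclei and 70.7% of L5/6 NP nuclei. L2/3 IT nuclei held one in 5.30% of cases (4.94 to 5.67). In mural cells and fibroblasts, which are not known for kainate receptors, the share was 22.7% (18.5 to 27.3) over the 370 of 1004 nuclei that reached 2000 UMIs. The L2/3 IT share lies below this and cannot be read as expression. Below, a gene is called at background in a class when the interval of its share at 2000 UMIs lies below or overlaps that of mural nuclei. The mark depends on the depth of thinning, and at 1000 UMIs, which 829 mural nuclei reached, it changed in some classes. RNA of other cells was estimated at 82.8% to 100% of mural UMIs, against 11.4% to 41.6% in the layer types and interneuron classes. The mark alone therefore does not show that a gene is absent. Without thinning the shares were 91.8% in Lamp5, 91.1% in Sst, 77.5% in L5/6 NP, 13.9% in L2/3 IT and 16.9% in mural nuclei. The median mural nucleus held 1928, 2323, 1112 and 1393 UMIs in the 4 lanes, against 3530, 4314, 5992 and 8292 for glutamatergic nuclei.

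Grik2 was counted in all 17 classes and varied less than Grik1. Its level was highest in Lamp5 interneurons, with 3509, 3584, 4090.3 and 4121 CPM, and next in Vip interneurons, with 2675, 2769, 2974 and 3196. Sst interneurons, striatal spiny projection neurons and L5 ET neurons came next with lane means of 2325, 2066 and 2022, whose lane ranges overlapped. L5 ET neurons, the output cells to brainstem and spinal cord, held 1732, 1721, 2306 and 2329.9, far above the other layer types, which ran from 959 in L6 CT to 643 in L6b. Only 5.95-fold separated the highest class from the lowest. A UMI of Grik2 was present in 98.9% of thinned Lamp5 nuclei and 94.7% of L5 ET nuclei, against 70.02% in L4/5 IT, 71.6% in L6b and 68.9% (63.9 to 73.6) in mural cells. The L4/5 IT and L6b intervals overlapped that of mural nuclei. At 1000 UMIs they lay above it, with 46.2 to 48.2 in L4/5 IT, 46.1 to 52.6 in L6b and 33.9 to 40.5 in mural nuclei. Grik2 still kept a value in all 12 layer types and interneuron classes with the estimated RNA of other cells taken out (below). Without thinning, the shares were 99.7%, 99.1%, 91.5%, 94.2% and 51.5%.

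Grik3 was highest in several deep-layer types and 1 interneuron class. L5 ET neurons, also of a deep layer, ranked 11 of 17 with a mean of 168 CPM. L6b neurons held 1178, 1132, 743 and 778 CPM. L5/6 NP neurons held 889, 986, 770.2 and 672, and L6 CT neurons held 858, 849, 597 and 598. Sst interneurons came next, with 818, 758, 579.8 and 573, and then deep IT neurons, with 523, 518, 369 and 355. Among the first 4 classes every pair of neighbours overlapped, and the step from Sst to deep IT and that from deep IT to the class below it did not. Of the 16 pairs in the whole order, 6 were apart within each of the pools. At the other end, Lamp5 interneurons held 35.4, 29.8, 13.5 and 22.2, which puts L6b 37.9-fold above them. Sst and Lamp5 interneurons thus lay far apart for Grik3 and next to each other for Grik1.

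Of thinned nuclei, 78.9% of L6b (76.1 to 81.6), 77.8% of L5/6 NP, 72.2% of L6 CT and 68.5% of Sst held a Grik3 UMI. The share was 3.71% in Lamp5 nuclei (2.83 to 4.77) and 13.2% in mural nuclei (9.96 to 17.1), so the Lamp5 value is at background. Unthinned, 97.1% of L6b, 88.0% of Sst, 7.80% of Lamp5 and 10.8% of mural nuclei held one.

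Grik4, the first of the high-affinity subunits, was spread over more classes. Its mean level was 598 CPM in L6b, 544 in dentate granule cells, 527 in oligodendrocyte precursors, 492 in L6 CT and 441 in Vip interneurons, and all of these neighbours overlapped. L2/3 IT neurons held 373, 378, 262 and 268, whereas L4/5 IT neurons held 63.8, 65.7, 38.3 and 42.5, the lowest of the 17 classes and 11.4-fold below L6b. The step from PV interneurons (136, 108, 85.5 and 81.7) to L4/5 IT was the only one in the order without overlap over all 4 lanes. When each pool was taken alone, 8 of the 16 steps were without overlap in both pools. The upper layers had opposite orders for 2 of the genes, since Grik4 was higher in L2/3 IT than in L4/5 IT neurons, and Grik1 lower, in all 4 lanes. A Grik4 UMI was found in 65.1% of thinned dentate granule nuclei, 64.6% of oligodendrocyte precursors, 63.7% of L6b and 42.7% of L2/3 IT. L4/5 IT nuclei held one in 8.66% (8.09 to 9.26), below the 23.0% (18.8 to 27.6) of mural nuclei, as were the 17.1% of PV (15.7 to 18.5) and 17.0% of Sst nuclei (15.5 to 18.6). The unthinned shares were 83.9%, 71.2%, 88.3%, 72.1%, 18.0% (L4/5 IT), 17.4% (mural), 31.2% (PV) and 28.7% (Sst) in the same order.

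Grik5, the other high-affinity subunit, varied least. Its mean level ran from 219.9 CPM in striatal spiny projection neurons to 97.99 in PV interneurons, a 2.24-fold range, and the lane ranges of all 16 pairs of neighbours overlapped. L6 CT neurons held 231, 236, 181 and 181, and claustrum-like neurons held 231, 247, 157 and 193. The thinned share was 36.4% in striatal neurons (34.4 to 38.3), 33.6% in L6 CT, 18.7% in PV (17.3 to 20.2) and 18.2% in L5/6 NP (15.8 to 20.9). The last 2 could not be separated from the 17.0% of mural nuclei (13.3 to 21.3). Unthinned shares were 58.2%, 58.4%, 35.6%, 32.1% and 16.8%.

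Grid1 was likewise broad, with a 2.67-fold range and overlap between all 16 pairs of neighbours. Claustrum-like neurons held 1371, 1475, 1131 and 1146 CPM, oligodendrocyte precursors 1316, 1305, 1168 and 1101, and L5/6 NP neurons 1221, 1365, 1087 and 1088. PV interneurons were lowest with 578, 539, 394 and 411. Its thinned share was 90.6% in oligodendrocyte precursors (88.9 to 92.1) and 89.5% in claustrum-like neurons, against 57.1% in PV and 48.6% in mural nuclei (43.4 to 53.9). Without thinning, these were 93.2%, 98.5%, 79.3% and 33.2%.

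The order of the genes within a cell can be read only per length, and it depended on which length was used. Per kb of gene span, Grik5 took 38.6% of the sum of the 6 levels in glutamatergic neurons and Grid1 took 13.5%. Per kb of exon, Grid1 took 38.2% and Grik5 took 10.3%. Other statements held under both lengths. Grik1 and Grik2 together led in PV, Sst and Lamp5 interneurons, where Grik1 took 31.3%, 33.1% and 36.2% per kb of span and 36.3%, 40.6% and 39.9% per kb of exon. In Vip interneurons Grik2 led, at 40.5% and 36.8%, and in L5 ET neurons it led at 40.6% and 41.6%. Grik3 took 40.6% per kb of span in L6b, where it was first, and 24.4% per kb of exon, where Grid1 was first with 32.7%. Grik1 took 26.5% and 30.9% in L5/6 NP neurons against at most 2.23% by span and 2.55% by exon in the layer types other than L4/5 IT.

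**Figure D2:**
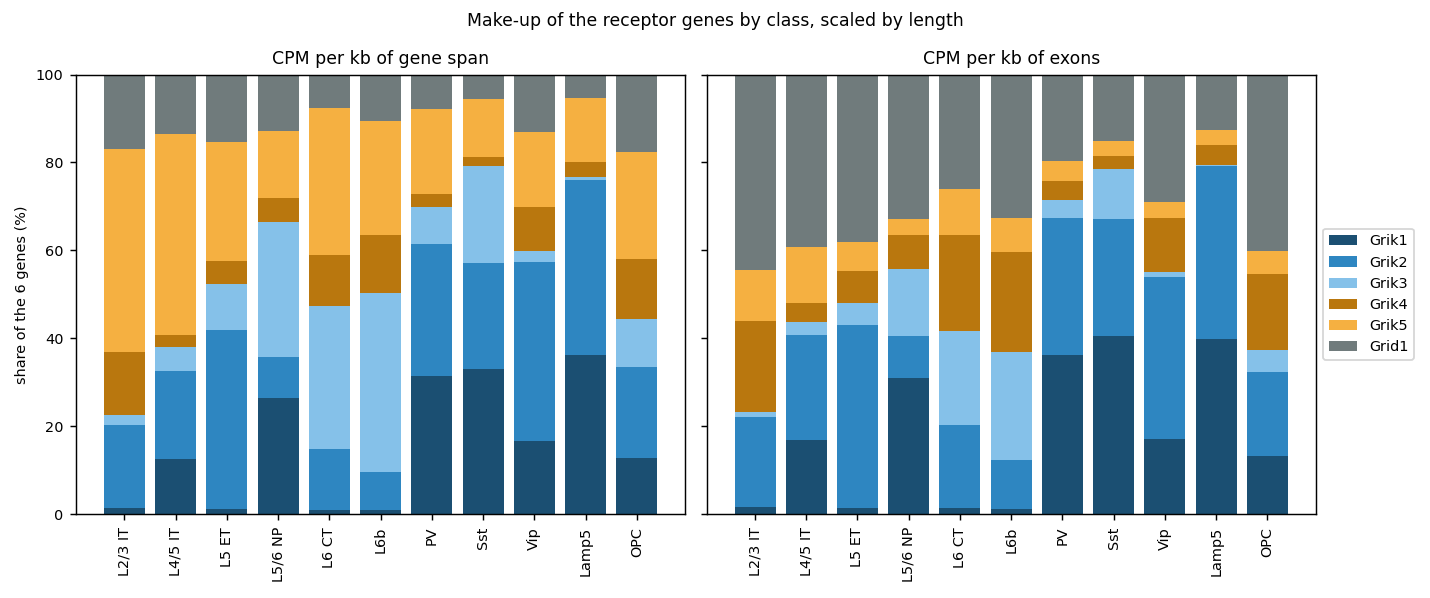
Share of each gene in the sum of the 6 levels, in percent, for 11 classes, with levels divided by kb of gene span (left) or by kb of exons (right). The bars show Grik1 and Grik2 filling most of the PV, Sst and Lamp5 columns under both lengths, while the leading gene of L2/3 IT neurons is Grik5 on the left (46.2%) and Grid1 on the right (44.5%).

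The profiles over 20 classes were compared as Pearson correlations of log2(CPM + 1), given as a description since classes share lanes and background RNA. Among the genes themselves, Grik4 and Grid1 were most alike (r = 0.64), then Grik5 and Grid1 (0.59), Grik4 and Grik5 (0.52), and Grik1 and Grik2 (0.48). Grik1 and Grik5 ran opposite to each other (−0.53). Among 11922 genes, Grik1 was most like Kcnip1 (0.88), a potassium channel partner, Nxph1 (0.87), which binds neurexins, and Alk (0.85), a receptor kinase. Grik2 was closest to Snrpn (0.88), Morc4 (0.83) and Rimkla (0.82). Grik3 was closest to Ftl1-ps1 (0.89), Cdh18 (0.76), a cadherin, and Gm40518 (0.76). Grik4 followed Lrfn2 (0.75), a synaptic adhesion gene, Sema5b (0.72), a semaphorin, and Pdzrn4 (0.70), and Grik5 followed Speg (0.84), Gm15810 (0.84) and Rab40b (0.83). The genes closest to Grid1 were Macrod2 (0.78), Gm47591 (0.77) and Slc22a17 (0.77).

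The question the design puts is which of these genes differed in adult cortex after adolescent risperidone. In glutamatergic neurons, Grik3, Grik4 and Grik5 were lower in the risperidone pool by a log2 ratio of at least 0.5, and Grid1 was lower by slightly less. Grik2 was nearly level. With the 8 layer types weighted equally, Grik3 alone reached that size (−0.52), while Grik4 and Grik5 were each −0.44, and in male nuclei Grik4 was −0.21. A difference was counted as called when the log2 ratio of the pools was at least 0.5 in size, the mean was at least 10 CPM and the lanes of the pools did not overlap. It is a rule of size, not a test. Of the 6 genes 3 were called, all lower, where 7.19% of the 7189 genes measured were called lower. For 5 of the 6 the lanes of the pools did not overlap and were lower, as for 47.2% of all genes. The median log2 ratio was −0.49 for the 6 genes and −0.02 for all genes. Genes of at least 200 kb, the length class of all members but Grik5, had a median of −0.18, and 14.1% of the 868 were called lower.

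In glutamatergic neurons Grik3 held 289 and 283 CPM in saline but 163 and 160.0 in risperidone. Its log2 ratio was −0.82 (−0.84 to −0.80), a fold of 0.566, the largest difference of the 6 genes. Grik4 held 332, 331, 229 and 229.5, a log2 ratio of −0.53 (−0.55 to −0.51). Grik5 held 193, 193, 132 and 137, with −0.52 (−0.54 to −0.49), and was not called without risperidone lane 1 (−0.50, just under the limit in size). For each of these genes the lanes of a pool, which are technical runs of it, lay close together and apart from those of the other pool. That was common, as lanes were apart and lower for 3394 of 7189 genes and apart and higher for 3068.

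Grid1 held 801, 814, 582 and 592 CPM, with a log2 ratio of −0.46 (−0.47 to −0.45), just short of the rule of size. Grik1 held 128, 124, 108 and 112, with −0.19 (−0.22 to −0.16). Grik2 held 894, 918, 887 and 899, and its lanes overlapped, with a log2 ratio of −0.02 that became positive with plain CPM as the scale. With that scale 1 gene was called, Grik3, since the log2 ratios of Grik4 and Grik5 then fell short of 0.5.

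**Figure D3:**
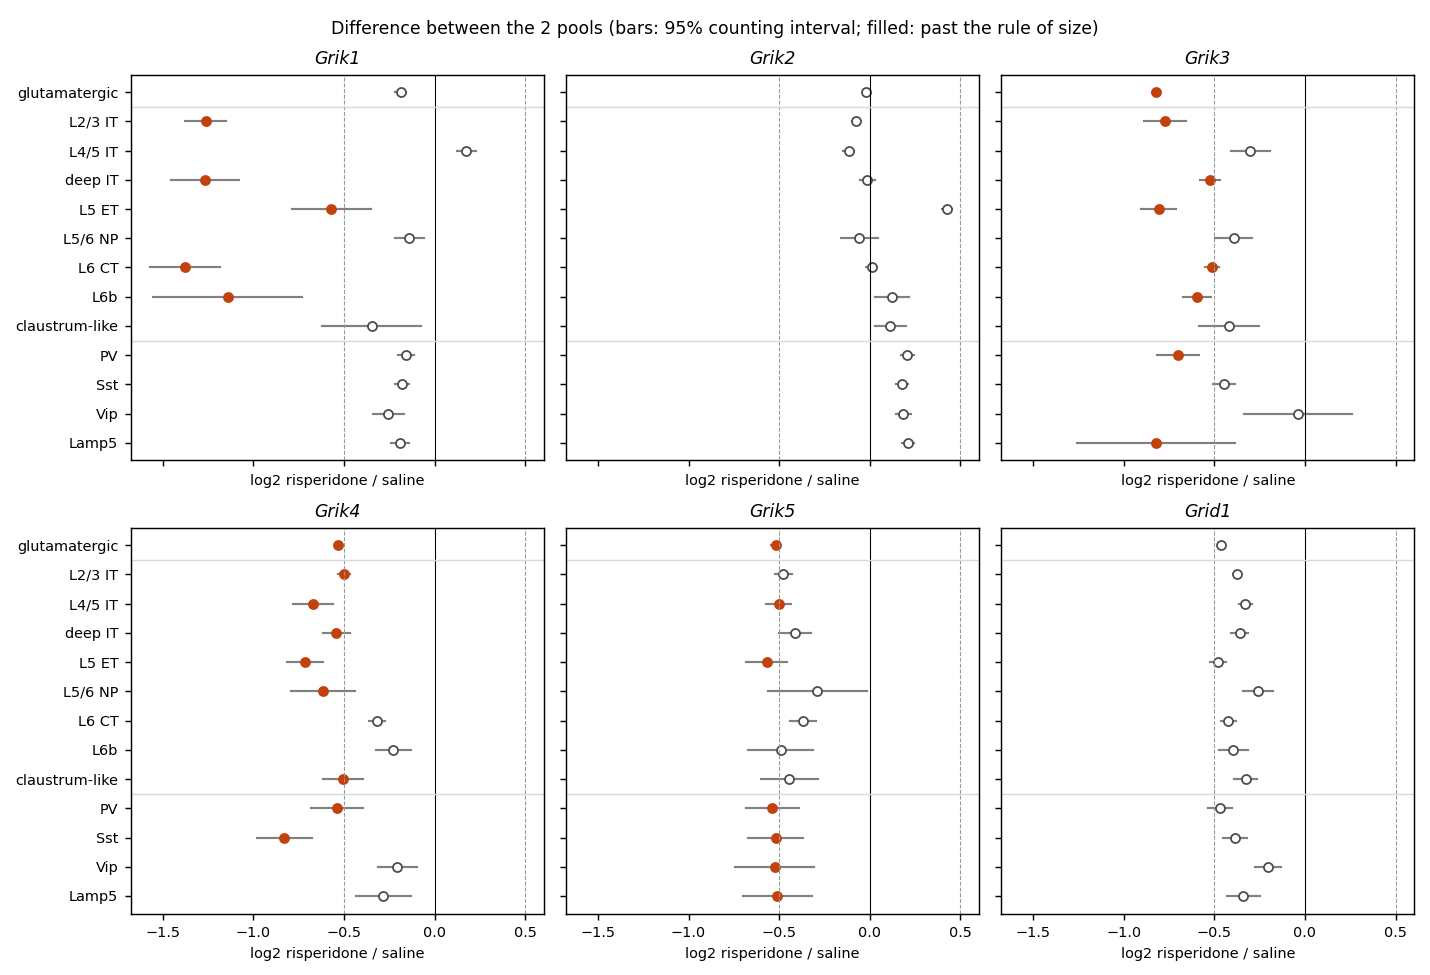
Log2 ratio of the risperidone to the saline pool for each gene in glutamatergic neurons, 8 layer types and 4 interneuron classes, with exact 95% counting intervals as bars, filled points where the rule of size was passed and dashed lines at ±0.5. Grik4, Grik5 and Grid1 sit below 0 in every class, and Grik2 sits above 0 in all 4 interneuron classes. Of genes of at least 200 kb, which include Grik4 and Grid1 but not Grik5, 65.7% (L6b) to 78.9% (PV) were lower.

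Among layer types, Grik3 was lower in all 8 and called in 5. Of all genes measured, 6.90% were called lower in L2/3 IT, 5.75% in L4/5 IT, 7.60% in deep IT, 10.0% in L5 ET, 10.1% in L5/6 NP, 6.59% in L6 CT, 9.09% in L6b and 8.38% in the claustrum-like type. In L6b, its class of highest level, the log2 ratio was −0.59 (−0.67 to −0.52), and in L6 CT it was −0.51 (−0.55 to −0.48) and in deep IT −0.52 (−0.58 to −0.47). It was called too in L5 ET neurons, with 222, 206, 117 and 127 CPM and −0.81 (−0.90 to −0.71), and in L2/3 IT neurons, where the level was at background. In L5/6 NP neurons the value was −0.39, not called. Without risperidone lane 2 the call in deep IT was lost (−0.49), and without it or without saline lane 2 Grik3 was called in the claustrum-like type as well (−0.62 and −0.55).

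Grik4 was called in 6 of the 8 layer types, with log2 ratios from −0.71 in L5 ET (215, 188, 116 and 127 CPM) to −0.50 in L2/3 IT and in the claustrum-like type. The call in L4/5 IT was made at background level. Those in L2/3 IT and the claustrum-like type were each lost without either of 2 lanes (−0.49 without saline lane 2 or risperidone lane 1, and −0.48 and −0.46 without saline lane 1 or risperidone lane 2). In L6 CT and L6b, 2 of the classes with the highest level, it was −0.32 (−0.36 to −0.27) and −0.23 (−0.33 to −0.13), not called. Grik5 was called in L4/5 IT (−0.50) and L5 ET (−0.57) and lay between −0.49 and −0.29 elsewhere. Without saline lane 1 or risperidone lane 1 it was not called in L4/5 IT (−0.47 and −0.48), and without saline lane 1 or risperidone lane 2 it was called in L6b (−0.65 and −0.57). It was also called in L2/3 IT (−0.51) and the claustrum-like type (−0.62) without risperidone lane 2. Grid1 was below 0 in all 8, from −0.48 in L5 ET to −0.26 in L5/6 NP, and called in none. Without risperidone lane 2 it was called in L5 ET (−0.50). With the estimated RNA of other cells taken out, it was called in 1 of the 12 layer types and interneuron classes (below). The lanes did not overlap in any of the 8, as for 1913 of 6972 genes (L6b) to 2986 of 7043 genes (L2/3 IT) that were lower. The intervals of L5 ET (−0.52 to −0.44) and L5/6 NP (−0.34 to −0.18) did not meet, but they cover counting error only. A difference between layer types was not tested.

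Grik1 went different ways in its layer types. It was lower in L5/6 NP, at −0.14 (−0.22 to −0.06), and higher in L4/5 IT, at 0.17 (0.12 to 0.23), the 2 layer types in which it was abundant. Calls were made for the 5 layer types in which its level was lowest, with log2 ratios of −1.38 in L6 CT, −1.27 in deep IT, −1.26 in L2/3 IT, −1.14 in L6b and −0.57 in L5 ET. In each of these, the estimated RNA of other cells exceeded the Grik1 UMIs counted in all 4 lanes. The call in L5 ET was lost without risperidone lane 2 (−0.48).

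Grik2 was called in none of the 8 layer types and 4 interneuron classes. Its largest difference among these 12 was in L5 ET neurons, where the lanes did not overlap and the log2 ratio was 0.43 (0.40 to 0.45). In L5 ET neurons, 36.0% of all genes had lanes that were apart and higher. Grik2 was −0.12 in L4/5 IT, −0.08 in L2/3 IT and 0.01 in L6 CT. Its lanes were apart and lower in L4/5 IT and L2/3 IT, as for 2862 of 7063 and 2986 of 7043 genes. Among these 12 classes L5 ET neurons had the most calls, as Grik1, Grik3, Grik4 and Grik5 were lower there while Grik2 was higher. Of all genes, 10.0% were called lower in L5 ET, where the 12 classes ran from 5.75% (L4/5 IT) to 10.1% (L5/6 NP). The call of Grik1 in L5 ET did not hold with every lane left out in turn (above). Whether L5 ET differed from the other classes was not tested. The thinned shares of L5 ET nuclei with a UMI of Grik4 (25.4%, 23.6 to 27.1) and of Grik5 (21.8%, 20.2 to 23.5) overlapped the mural intervals, and Grik1 was at background. After thinning to 1000 UMIs, the intervals of Grik4 and Grik5 lay above those of mural nuclei. Grik4 was then at 13.8% (12.5 to 15.2) against 9.05% (7.18 to 11.2). Grik5 was at 12.2% (10.9 to 13.5) against 7.84% (6.10 to 9.88).

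In PV interneurons, 3 of the 6 genes were called lower, where 8.73% of all genes and 16.6% of genes of at least 200 kb were. Grik3 held 204, 179, 115 and 119 CPM, a log2 ratio of −0.70 (−0.82 to −0.58). Grik4 had −0.54 (−0.68 to −0.40) and Grik5, with 124, 108, 79.8 and 79.7, had −0.54 (−0.69 to −0.39). Without saline lane 1, Grik3 alone was called, as Grik4 was −0.37 and Grik5 −0.44. Without saline lane 2 or risperidone lane 2, Grid1 was called too (−0.52 and −0.50). None of the 6 was called among male nuclei, of which the lanes held 181, 184, 181 and 175. Among female nuclei (380, 332, 307 and 297) 4 were called, with Grid1 added. Grik3 in male nuclei was −0.24 (−0.48 to 0.01). The share of all genes called in each sex is not given here, and a difference between the sexes was not tested. The share of PV nuclei with a UMI lay below that of mural nuclei for Grik4, and its interval overlapped theirs for Grik5.

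In Sst interneurons Grik4 (149.7, 159, 101 and 75.5 CPM, −0.83) and Grik5 (137, 134, 94.8 and 94.3, −0.52) were called, where 8.73% of all genes were called lower. Grik4 was there at background level. Grik3, abundant in this class, was −0.45 (−0.51 to −0.38), and it was called without saline lane 2 (−0.51). Grik5 alone was called in Vip interneurons, with 137, 123, 95.4 and 85.7 and a log2 ratio of −0.53 (−0.75 to −0.31), against 7.72% of all genes. The interval of the share of Vip nuclei with a Grik5 UMI overlapped that of mural nuclei. That call was lost without saline lane 1 (−0.46) and without risperidone lane 2 (−0.44). Lamp5 interneurons had Grik3, at background level, and Grik5 (154, 144, 103 and 105, −0.51) among the calls, against 7.31% of all genes. Without saline lane 1 only the call of Grik3 was left there, as Grik5 was −0.47.

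Grik5 was the gene called in all 4 interneuron classes, with log2 ratios within −0.54 to −0.51. Its thinned share was 18.6% in Vip (16.6 to 20.8), 20.8% in Lamp5 (18.8 to 22.9) and 21.6% in Sst nuclei (19.9 to 23.3), and these intervals, like that of PV, overlapped the one of mural nuclei (13.3 to 21.3). Unthinned, the shares were 36.1%, 43.5% and 40.2%. The genes that led per length in PV, Sst and Lamp5 interneurons differed less. Grik1 lay between −0.26 (Vip) and −0.16 (PV), called in none. Grik2 was higher in all 4, between 0.18 and 0.21, with lanes apart in each, as for 30.9% (PV), 28.7% (Sst), 23.4% (Vip) and 28.6% (Lamp5) of all genes. Its level in PV interneurons was 1465, 1663, 1759 and 1855 CPM. Grid1 was lower in all 4, between −0.47 in PV and −0.20 in Vip.

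Over the 8 layer types and 4 interneuron classes, Grik4, Grik5 and Grid1 were lower in all 12 under the 3 scalings and with any 1 lane left out. Under TMM, 3321 of 6972 (L6b) to 4046 of 7354 genes (Vip) were lower in these classes. Of genes of at least 200 kb, such as Grik4 and Grid1, 65.7% (L6b) to 78.9% (PV) were lower. Between 8.74% (Vip) and 16.6% (PV) of these long genes were called lower. Grik3 was lower in 12 under TMM and in 11 with plain CPM. The number of classes in which Grik5 was called was 6 under TMM factors, 8 under DESeq2 size factors and 1 with plain CPM, while for Grik4 it was 8, 8 and 4. With any 1 lane left out, Grik5 was called in 3 (without saline lane 1) to 8 classes (without risperidone lane 2) and Grik4 in 6 to 7. Grik2 was higher in 8 under TMM and in 10 with plain CPM.

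Outside the cortical neurons, the same genes were compared in dentate granule cells, striatal spiny projection neurons and glia. Microglia, with 11 and 13 nuclei in the saline lanes, are not described. In dentate granule cells Grik4 held 698, 770.0, 346 and 361 CPM, a log2 ratio of −1.06 (−1.24 to −0.89). Grik1 (at background level), Grik3 and Grik5 were called lower too, where 16.0% of all genes were, and Grik2 was higher with 1375, 1606, 1772 and 2044 (0.34). Striatal neurons had calls for Grik1, at background level, and for Grik5 (265, 258, 176 and 181, −0.54), against 9.39% of all genes. No member was called in oligodendrocyte precursors, where 10.6% of all genes were called lower and Grik4 held 575, 566, 469 and 499 (−0.23). Grik3, Grik4 and Grik5 were called lower in astrocytes (−0.86, −0.81 and −0.55, against 7.38% of all genes) and in oligodendrocytes (−0.78, −0.66 and −0.58, against 8.38%). The RNA of other cells was estimated at 43.2% to 53.2% of the UMIs of astrocytes and 68.6% to 78.3% of those of oligodendrocytes.

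Mural cells and fibroblasts, in which the estimated RNA of other cells exceeded the member UMIs in 23 of 24 lane values, had log2 ratios from −0.90 for Grik5 (110.3, 151, 77.2 and 66.6 CPM) to −0.30 for Grik2. Grik5 and Grid1 were called lower there, against 11.3% of all genes. The share of Grik5 UMIs credited to other cells in the interneuron classes was 22.1% to 58.0%.

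The pools differed in their background RNA. From the markers of other cell types, the share of UMIs that came from other cells was estimated at 27.7% to 30.2% in saline and 17.0% to 18.6% in risperidone glutamatergic nuclei. It was 29.2% to 33.4% against 19.6% to 23.4% in PV, 32.1% against 16.7% to 17.1% in Sst, 26.7% to 38.6% against 21.4% to 22.1% in Vip and 19.9% to 25.2% against 18.5% to 18.6% in Lamp5 interneurons. With the estimate taken out, a step that subtracts the lane's average RNA, Grik3, Grik4 and Grik5 were still called in glutamatergic neurons. Grik1 changed there from −0.19 to 0.44, and Grik4 in PV interneurons, where the estimate was 79.2%, 86.5%, 59.3% and 52.8% of its UMIs, changed from −0.54 to 0.61. No saline UMIs of Grik4 were left in L4/5 IT neurons. Over the 12 classes, Grik3 kept a value in 8 and was called in 7 of them. Grik4 was called in 5, lower in 4 and higher in 1, which was PV interneurons. Grik5 kept a value in all 12, lower in each, and was called in 2. Grid1 also kept a value in all 12, lower in each, and was called in 1. Grik2 was then higher in all 12. The share of all genes called with the estimate taken out is not given here.

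The pools also differed in which glutamatergic neurons they held. The 8 layer types made up 66.3% of these nuclei in both saline lanes and 79.7% in both risperidone lanes. An unnamed cluster led by Ndst4 and Tafa1 made up 11.9% and 12.7% against 5.55% and 5.12%. Another led by Stac and Shisa6, with the highest saline Grik4 level of the clusters compared (946 and 957 CPM in saline, 343 and 219 in risperidone), made up 2.96% and 3.01% against 0.939% and 0.903%. A cluster led by Hs3st4 and Igsf21, with the highest saline Grik3 level of the classes and clusters (1509 and 1583 CPM), made up 1.66% and 1.46% of saline but 0.0666% and 0.0320% of risperidone glutamatergic nuclei, too few there (9 and 4) to compare. With the 8 layer types weighted equally, Grik3 was −0.52 and called, Grik4 and Grik5 were each −0.44, Grid1 was −0.35, Grik1 −0.20 and Grik2 0.12. In the Stac and Shisa6 cluster Grik4 was called lower, with a log2 ratio of −1.78 (−1.91 to −1.66). Grik3 (−2.09), Grik5 (−0.98) and Grid1 (−0.73) were called lower there too, against 19.5% of all genes. In the Ndst4 and Tafa1 cluster Grik1 was called higher, with 251, 236, 379 and 357 CPM and 0.60 (0.54 to 0.66), against 5.12% of all genes. Grik3 (−1.08), Grik4 (−0.56), Grik5 (−0.61) and Grid1 (−0.71) were called lower in that cluster, against 12.9%. A small cluster led by Tshz2 and Fyb2 had Grik1 at 891, 865, 1120.1 and 1367, called higher with 0.51 (0.41 to 0.62), against 13.1% of all genes. Grik3 (−1.08) and Grik4 (−1.12) were called lower in it, against 688 of 7001 genes. The part of this mix, of the depth of the lanes and of their Malat1 share in the differences was not tested beyond these values.

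The sexes, told apart by Xist and Y-linked UMIs, gave different sizes for Grik4 in glutamatergic neurons. Nuclei named female were 37.8% and 39.7% of saline and 54.7% and 53.9% of risperidone glutamatergic nuclei. Those named male were 19.6%, 19.9%, 22.7% and 23.8% in the same lanes, and the rest were given no sex. The part of this naming in the values by sex was not tested. Female nuclei held 370.2, 364, 219 and 217 CPM, a log2 ratio of −0.75 (−0.78 to −0.72). Male nuclei held 294, 281, 242 and 252, a log2 ratio of −0.21 (−0.25 to −0.17). Grid1 was −0.57 in female and −0.30 in male nuclei, whereas Grik3 was −0.84 and −0.86 and Grik5 −0.49 and −0.56. The cluster of Stac and Shisa6 made up 4.67% and 4.78% of female saline glutamatergic nuclei but 0.698% and 0.722% of male ones, and 1.22% and 1.16% against 0.651% and 0.369% in risperidone. With the layer types weighted equally, a description added after the values were seen, Grik4 was −0.48 in female and −0.26 in male nuclei. With 1 pool per condition, no test of a difference between the sexes was possible.

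**Figure D4:**
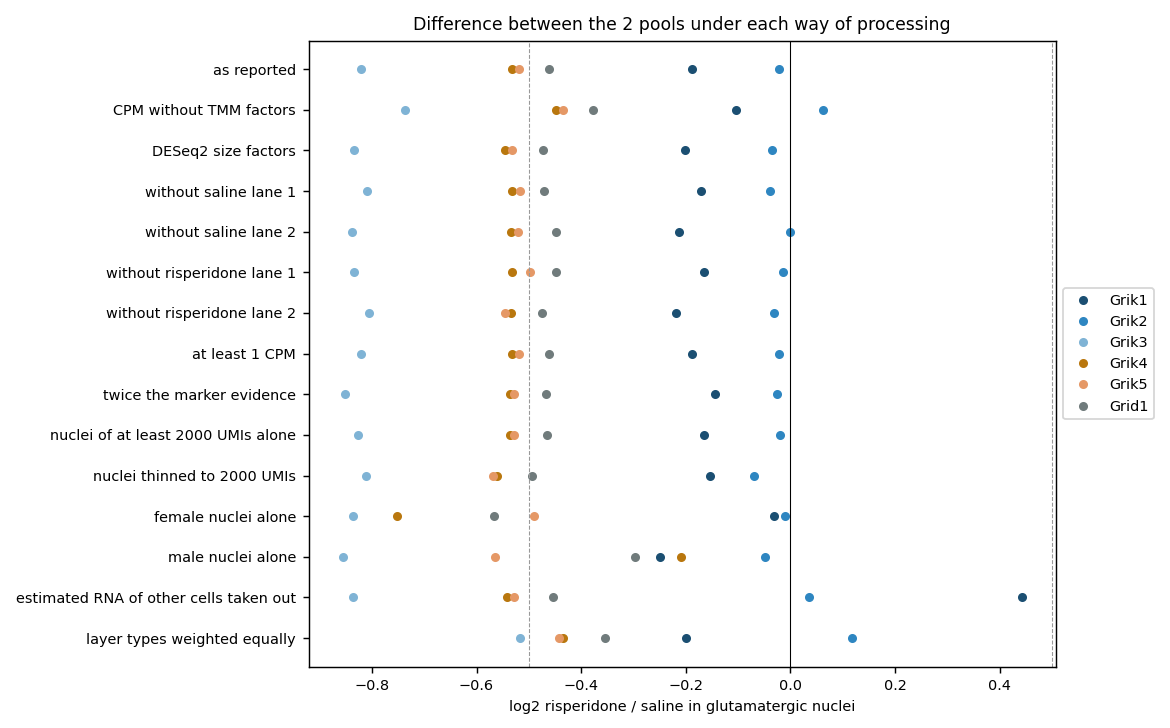
Log2 ratio of the risperidone to the saline pool for each gene in glutamatergic neurons under the reported setting and 14 alternatives. Grik3 stays between −0.86 and −0.52, whereas Grik4 moves between −0.75 in female nuclei and −0.21 in male nuclei.

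Proteins that bind these receptors were looked at as a list of 14 genes, of which 13 were in the matrices. In glutamatergic neurons 8 of them reached 10 CPM, with a median log2 ratio of 0.01. Of these 8, 1 was called, as were 822 of all 7189 genes measured. The called gene was Grip1, a PDZ scaffold that binds glutamate receptors, with 493, 483, 302 and 303 CPM and −0.69 (−0.70 to −0.67). The auxiliary subunits of kainate receptors, Neto1 and Neto2, had −0.07 and 0.13, and C1ql3, a secreted C1q-like protein, had 0.10. Nrxn2, a neurexin, had −0.47. In PV interneurons Neto2 was called higher (128, 147, 193 and 197, log2 ratio 0.50) and Nrxn2 lower (190.0, 173, 124 and 125, −0.54). Of all genes there, 6.57% were called higher and 8.73% lower. None of the list was called in Sst, Vip or Lamp5 interneurons, where 7, 9 and 7 of it were measured. Of all genes, 1064 of 7306 were called in Sst, 1056 of 7354 in Vip and 1097 of 7373 in Lamp5. Cbln1, Cbln2 and Cbln4, the cerebellins that bridge GluD1 to neurexins, were each below 10 CPM in glutamatergic neurons. Of 11 other ionotropic glutamate receptor genes, 8 were measured in glutamatergic neurons and 1 was called, lower, against 7.19% of all genes. Their median was −0.24, about midway between that of the 6 genes and that of all genes.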

How the data were processed

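Nuclei of 4 lanes (2 per pool) were analysed. The authors aligned reads with Cell Ranger 8.0.1 to an mm10 reference, counted intronic reads, and deposited filtered matrices of UMI counts per gene and nucleus, not normalized. Any 2 lanes shared 160 to 221 cell barcodes. Sequences and positions came from GENCODE vM21 (GRCm38), which held 99.8% of the gene identifiers. The members, lists, markers and rules were chosen with earlier results of these data known.

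Nuclei had to hold 500 genes or more and no more than 5% of UMIs from mitochondrial genes, and doublet-like ones were removed by comparison with simulated doublets, at 0.4% per 1000 nuclei listed. This left 21083 to 26384 a lane. Clusters came from the Louvain method at resolution 0.5, on 30 principal components of 2000 variable genes with 20 neighbours a nucleus. A cluster was named when its markers had a mean log2 ratio of at least 1.5 to the other clusters (1.0 for layer types) with at least 3 raised, and a nucleus also needed 2 marker UMIs. These limits were set after the marker levels had been seen. UMIs were summed per class and lane and scaled by the TMM factors of edgeR 4.0.16 (R 4.3.3), and ratios have exact conditional binomial intervals. Shares have Clopper-Pearson intervals. A share of RNA from other cells was estimated, as an upper value, from the median level of other classes' markers relative to the whole lane. The script was tested on simulated counts.

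Named genes were all 6 members, the partner genes past the rule of size with up to 4 others by role, and for each member the 3 genes of closest profile. Klhl17 of the partner list was not analysed here. Alternatives were plain CPM, DESeq2 1.42.0 size factors, each lane left out, a floor of 1 CPM, stricter class naming, deeper or thinned nuclei, each sex, background RNA taken out and equal layer weights. Clustering was done in igraph 0.11.9 and scikit-learn 1.9.0, under Python 3.11.15, intervals in scipy 1.17.1 and figures in matplotlib 3.10.9.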

Additional observations from a re-analysis of the deposited data

Results flagged for a closer look

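Grik1 in L4/5 IT neurons went against its other classes. The log2 ratio of risperidone to saline was 0.17, with both risperidone lanes above both saline lanes, as for 2655 of 7063 genes there. In the 11 other layer types and interneuron classes both risperidone lanes were lower, as for 1913 of 6972 (L6b) to 2986 of 7043 genes (L2/3 IT). In the 5 layer types with a call, the estimated RNA of other cells exceeded the Grik1 UMIs counted. With that RNA taken out, Grik1 kept a value in 6 of the 12 classes, lower in 5 and higher in 1. The difference between classes was not tested, since each condition has 1 pool.

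Grik2 differed in direction between cell classes. Its risperidone lanes were below the saline lanes in L2/3 IT (log2 ratio −0.078), L4/5 IT (−0.12), deep IT (−0.014) and L5/6 NP neurons (−0.059), and above them in 6 classes, namely L5 ET, L6b and all 4 interneuron classes. Lanes apart and lower were found for 2986 of 7043 genes in L2/3 IT and 2862 of 7063 in L4/5 IT neurons. The counts were 2691 of 6964 in deep IT and 2088 of 7347 in L5/6 NP neurons. Lanes apart and higher were found for 2518 of 6992 genes in L5 ET, 2101 of 6972 in L6b and 23.4% (Vip) to 30.9% (PV) in interneuron classes. The differences in direction were not tested. With plain CPM as the scale Grik2 was lower in 2 of the 12 classes, and with the estimated RNA of other cells taken out it was lower in none.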

How the results depend on the processing

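No paired analysis was possible because the lanes are technical runs of 1 pool each and the results come from no test. The counts of calls below are given without the share of all genes called under the same alternative. They describe the processing and are not a result about the members. The members called in glutamatergic neurons (3) became 1 with plain CPM and 1 with layer types weighted equally. With a lane left out there were 2 to 3. In PV interneurons (3) there was 1 with plain CPM and 0 among male nuclei, and 1 to 4 with a lane left out. Sst (2) gave 1 with plain CPM, 1 in thinned nuclei, 1 among male nuclei and 1 with RNA of other cells taken out, and 2 to 3 with a lane left out. Vip (1) gave 0 with plain CPM, 0 in nuclei of at least 2000 UMIs, 0 among female nuclei and 0 with RNA of other cells taken out, and 0 to 1 with a lane left out. Lamp5 (2) gave 1 with plain CPM, 1 in thinned nuclei, 1 in female and 1 in male nuclei and 0 with RNA of other cells taken out, and 1 to 2 with a lane left out. Grik4 in PV interneurons reversed to 0.61, and was called higher, with RNA of other cells taken out. The cause was not tested. Of 394 single values under alternatives, 278 stayed within the counting interval of the reported ratio and 115 moved out of it. That interval covers counting error only. The sign changed for 11 of the values, of which 1 had been called. The other 10 were uncalled values of Grik1, Grik2, Grik3 and Grid1 in glutamatergic neurons or Vip interneurons. With plain CPM, the median of all genes moved from −0.02 to 0.07 in glutamatergic neurons. The count of partner genes called stayed at 1 under both of its alternatives, and the class of highest level was the same for 6 of 6 members except with RNA of other cells taken out, where it was for 4. That of the highest share was the same for 4 of 6 at 1000 UMIs.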
